A study of Mus musculus with 8 samples.

Results

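The genes described here encode the complement and clotting proteins that the liver secretes into blood, together with their inhibitors. They were taken by symbol from a list of 45 names. Of these, 44 were found among the 35638 genes of the table, 23 in the clotting branch and 21 in the complement branch. The name C5 had no row, because the mouse gene for that component is listed as Hc. The comparison was between KO, mouse liver carrying floxed Arid1a alleles with the Alb-cre transgene, and WT, liver with the same floxed alleles and no Cre, with 4 libraries in each group. All mice were at postnatal day 90 on a mixed C57/B6 and 129 background. Alb-cre drives the recombinase from the albumin promoter, which is active in hepatocytes, and the livers also hold cells of other types. The study, by its title, concerns steatohepatitis after loss of Arid1a, which encodes a DNA-binding part of SWI/SNF chromatin remodellers. Whether each library came from its own animal is not stated in the labels, and the p-values therefore cover sample-to-sample spread that may be technical.

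Clotting proceeds through a chain of serine proteases, most of them made by hepatocytes as inactive precursors, that ends when thrombin cuts fibrinogen into fibrin. Antithrombin, protein C and related inhibitors limit the chain, and plasmin dissolves the clot. Complement is another protease cascade of plasma. It is started by antibody, by lectins or by spontaneous turnover of C3, and ends in a pore built from the terminal components.

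Levels are FPKM, fragment counts divided by gene length and library size. Their sum over all genes differed between libraries, from 455460 FPKM in WT 3 to 621930 FPKM in KO 2. A comparison between libraries therefore depends on the scaling used. Depth, estimated from the steps between low values, was 13700000 to 15200000 reads in KO and 12400000 to 13600000 reads in WT. Arid1a was at 2.70, 2.86, 3.46 and 2.59 FPKM in KO 1 to KO 4, against 5.16, 8.38, 3.998 and 4.10 FPKM in WT 1 to WT 4, so WT 3 lay closest to the KO range. Hepatocyte markers were abundant in every library, with Alb between 23165 and 31604 FPKM in KO and between 20104 and 27121 FPKM in WT. Xist lay between 53.5 and 95.6 FPKM over the 8 libraries, and no Y-linked gene of the 4 examined exceeded 0.0527 FPKM. Of 11266 genes with a mean of at least 1 FPKM, 46 were higher and 40 lower in KO at a limma adjusted p under 0.05, which is 0.763% of the genes tested.

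None of the 42 tested clotting and complement genes passed that threshold in either direction (limma, Benjamini-Hochberg adjusted over all genes). At an unadjusted p under 0.05, 2 of 22 clotting genes were found, both higher in KO, and 6 of 20 complement genes, 4 higher and 2 lower. Over all genes tested 9.81% were found at that p, 4.99% higher and 4.82% lower in KO. A change is given below as the difference of mean log2(FPKM + 1), KO minus WT, a scale that understates the change of low genes. Its 95% interval had a median width of ± 0.51 for the clotting genes and ± 0.53 for the complement genes. In 20 clotting genes and 14 complement genes the whole interval lay between -1 and 1, so a change of 1 on the log2 scale in either direction lay outside it. The groups did not overlap in 5 of the 42 genes, namely F7, F12 and C1s1, higher in KO, and C4b and C8a, lower in KO. Over all genes tested, 6.23% had groups that did not overlap, 3.05% with KO above WT and 3.18% with KO below WT.

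**Figure D1:**
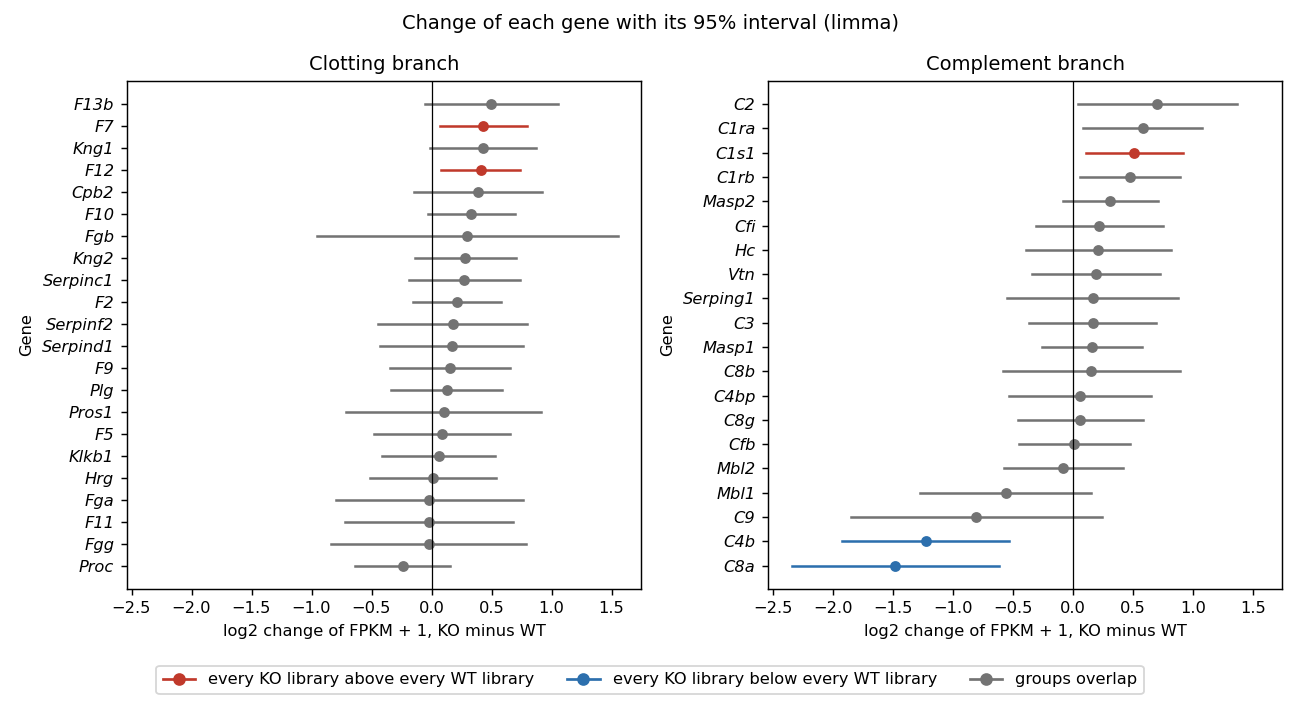
Change of each tested gene as log2 of FPKM + 1, KO minus WT, with its 95% interval from limma (n = 4 libraries each). The clotting genes lie between -0.24 and 0.50, whereas in the complement branch C4b (-1.23) and C8a (-1.48) lie apart from the other genes.

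Among the clotting genes the procoagulant factors F12 and F7 were higher in every KO library than in any WT library (mean ratios of 1.33 and 1.36), and the remaining members overlapped between the groups. F12, the contact factor that starts the intrinsic route, was at 117, 133, 123 and 138 FPKM in KO 1 to KO 4, against 99.9, 99.4, 88.8 and 95.2 FPKM in WT 1 to WT 4. F12 varied least between replicates among the 22 tested clotting genes and the 20 tested complement genes, with a within-group SD of 0.09 on the log2 scale. The change of F12 was 0.41 ± 0.15 (SE, limma adjusted p = 0.357). F7, the protease that tissue factor activates at a wound, was at 47.2, 58.9, 44.6 and 52.2 FPKM in KO, against 36.2, 42.5, 34.4 and 36.1 FPKM in WT. Its change was 0.43 ± 0.16 (SE, limma adjusted p = 0.389). F10, the shared protease that makes thrombin, lies 1499 bp downstream of F7 on chromosome 8. Its levels were 122, 141, 129 and 161 FPKM in KO, against 109, 122, 96.6 and 109 FPKM in WT, so that KO 1 lay just below the highest WT library and the other KO libraries above it. The change of F10 was 0.33 ± 0.16 (SE, limma adjusted p = 0.556).

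F13b, the carrier subunit of the factor that crosslinks fibrin, was at 37.3, 58.9, 38.3 and 65.6 FPKM in KO, against 32.9, 25.7, 35.5 and 44.8 FPKM in WT. KO 2 and KO 4 stood above every WT library and the other KO libraries did not. The change of 0.50 ± 0.25 (SE) had a limma adjusted p of 0.574. F2, which encodes prothrombin, averaged 507 ± 54.5 FPKM in KO and 437 ± 48.9 FPKM in WT (SD, n = 4 each, change 0.21). The cofactor gene F5 and the protease genes F9 and F11 of the intrinsic route had changes of 0.09, 0.15 and -0.02. Their groups overlapped widely, F11 ranging from 11.9 to 30.1 FPKM in KO and from 14.8 to 22.5 FPKM in WT.

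Fibrinogen is assembled from alpha, beta and gamma chains, encoded by Fga, Fgb and Fgg side by side on mouse chromosome 3. The 250 bases before each RefSeq start are shown because the chains are needed in equal amounts and the ratio of Fgb to Fga differed between these libraries. Capitals mark matches on either strand to a C/EBP motif (TTGCNNAA) or to the interleukin-6 response motif CTGGGAA of acute phase genes. Sequences are RefSeq's, build GRCm38.p6, each written 5′ to 3′ along its gene.
Fga promoter, chr3:83025903-83026152, plus strand: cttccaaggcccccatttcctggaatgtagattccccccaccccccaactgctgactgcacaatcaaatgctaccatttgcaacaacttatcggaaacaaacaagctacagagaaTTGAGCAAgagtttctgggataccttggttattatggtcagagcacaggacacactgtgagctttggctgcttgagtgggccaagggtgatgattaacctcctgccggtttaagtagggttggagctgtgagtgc
Fgb promoter, chr3:83049864-83050113, minus strand: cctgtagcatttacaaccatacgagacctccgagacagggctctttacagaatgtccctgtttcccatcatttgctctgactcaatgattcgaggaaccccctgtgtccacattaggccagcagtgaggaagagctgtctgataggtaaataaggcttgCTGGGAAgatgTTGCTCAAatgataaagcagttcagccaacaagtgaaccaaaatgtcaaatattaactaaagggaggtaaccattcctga
Fgg promoter, chr3:83007474-83007723, plus strand: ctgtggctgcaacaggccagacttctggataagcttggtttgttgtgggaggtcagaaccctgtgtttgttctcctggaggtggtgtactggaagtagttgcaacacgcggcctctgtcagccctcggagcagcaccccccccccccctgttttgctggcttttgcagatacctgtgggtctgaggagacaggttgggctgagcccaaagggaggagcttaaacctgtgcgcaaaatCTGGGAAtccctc
The Fgb window held both motifs, the interleukin-6 motif starting 91 bases and the C/EBP motif 80 bases before the start. Fga held a C/EBP match 135 bases before its start and Fgg an interleukin-6 motif 13 bases before its start. Among all 32851 promoter windows of this length, 9.56% held the C/EBP motif and 9.10% the interleukin-6 motif. Among the 19 clotting genes with a window in the table, 7 held the C/EBP motif (F9, F11, Fga, Fgb, Hrg, Klkb1 and Kng2) and 3 the interleukin-6 motif. A gene was counted if any of its windows held the motif, whereas the shares over all windows count single windows. A match describes these letters and is not evidence of binding.

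Fga, among the 100 most abundant genes, was at 695, 987, 1152 and 1938 FPKM in KO 1 to KO 4, against 878, 994, 959.7 and 1918 FPKM in WT 1 to WT 4. The highest library of each group, KO 4 and WT 4, exceeded its own group's other libraries by far more than the groups differed. Fgg was likewise lowest in KO 1 and WT 1 and highest in KO 4 and WT 4, with 541, 788, 937 and 1642 FPKM in KO, against 704, 750.0, 854 and 1560.3 FPKM in WT. Fgb was at 364, 936, 1240.3 and 1947 FPKM in KO, against 938, 457, 478 and 1758 FPKM in WT, the widest within-group spread of any member (SD 0.97 on the log2 scale). The changes were -0.02 ± 0.35 for Fga, -0.02 ± 0.36 for Fgg and 0.30 ± 0.56 for Fgb (SE), and their limma adjusted p was 0.997, 0.995 and 0.939. The sign of each of them turned when single libraries were left out.

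Within a library Fgg and Fga kept a nearly fixed ratio, 0.810 ± 0.0291 in KO and 0.815 ± 0.0557 in WT (SD, n = 4 each). Fgb and Fga did not. Their ratio was 0.524, 0.948, 1.08 and 1.005 in KO 1 to KO 4, against 1.07, 0.460, 0.498 and 0.917 in WT 1 to WT 4. The ratio lay near 0.5 in KO 1, WT 2 and WT 3 and near 1 in the other libraries, so both genotypes held libraries of each kind. The cause was not tested.

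**Figure D2:**
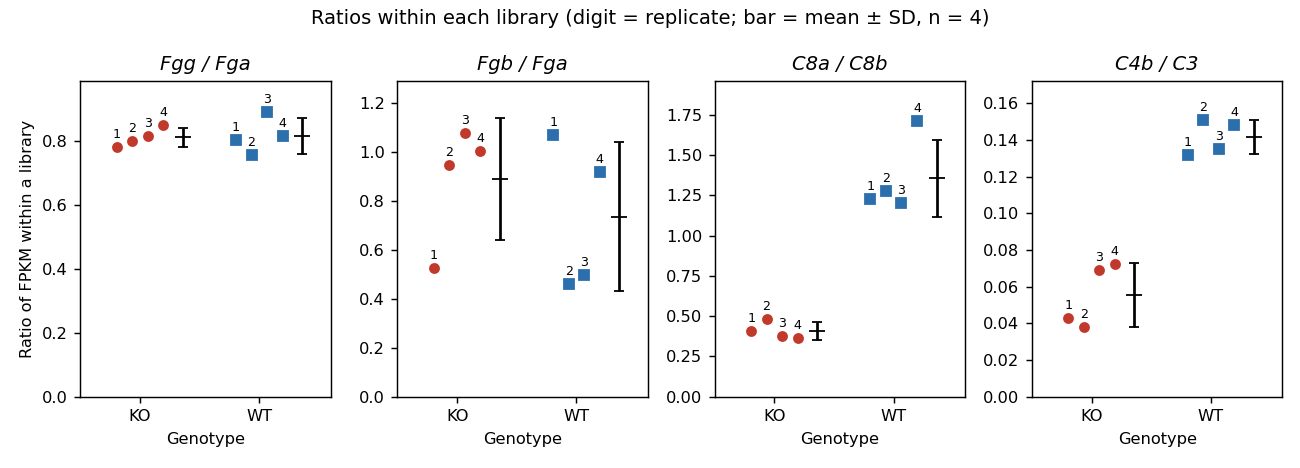
Ratio of FPKM of related genes within each library, KO left of WT, with the replicate number beside each point and mean ± SD (n = 4 each). Fgg to Fga is alike in all libraries and Fgb to Fga varies within both genotypes. C8a to C8b separates the genotypes (0.367 to 0.484 in KO, 1.20 to 1.71 in WT). So does C4b to C3 (0.0382 to 0.0722 in KO, 0.132 to 0.151 in WT). The levels of C8a and C4b alone do so as well.

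The contact system comprises the kininogens, precursors of bradykinin and cofactors of contact activation, and plasma prekallikrein. Kng1 was at 515, 808, 611 and 861 FPKM in KO, against 513, 496, 477 and 550.1 FPKM in WT. Its lowest KO library lay within the WT range and the other KO libraries lay above it (change 0.43 ± 0.20 SE, limma adjusted p = 0.530). Kng2, a close copy 28383 bp from Kng1 on chromosome 16, averaged 174 ± 35.8 FPKM in KO and 141 ± 11.2 FPKM in WT (SD, n = 4 each, change 0.28). Reads of the kininogen genes can be assigned to the wrong copy, which leaves each value uncertain. Klkb1, the prekallikrein gene, had a change of 0.06.

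Among the inhibitors, Serpinc1, the antithrombin gene, averaged 144 ± 33.0 FPKM in KO and 118 ± 18.5 FPKM in WT, and Serpind1, the heparin cofactor II gene, 143 ± 49.7 FPKM in KO and 122 ± 22.9 FPKM in WT (SD, n = 4 each). Proc, the gene of the anticoagulant protease protein C, had the most negative change of the branch (-0.24). It was at 89.7, 128, 86.7 and 116 FPKM in KO, against 125, 114, 120.3 and 131 FPKM in WT, and the groups overlapped (limma adjusted p = 0.773). Pros1, which encodes the cofactor of protein C, was the lowest tested member, at 2.24 to 8.58 FPKM in KO and 2.37 to 6.10 FPKM in WT. Hrg, a heparin-binding plasma glycoprotein gene, had a change of 0.01. A2m was listed at 0 in 6 libraries and never above 0.0212 FPKM, and was not tested. Pzp, which encodes the alpha-macroglobulin abundant in mouse plasma, averaged 816 ± 270.5 FPKM in KO and 787 ± 205 FPKM in WT (SD, n = 4 each).

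For fibrinolysis, Plg, the plasminogen gene, averaged 522 ± 112 FPKM in KO and 474 ± 81.6 FPKM in WT, and Serpinf2, the antiplasmin gene, 214 ± 58.5 FPKM in KO and 192 ± 67.2 FPKM in WT (SD, n = 4 each). Cpb2 encodes a carboxypeptidase that protects fibrin from plasmin. It was at 65.4, 83.6, 69.3 and 127 FPKM in KO, against 64.6, 49.9, 73.1 and 69.1 FPKM in WT. KO 4 alone stood well above the rest, and the change of 0.39 ± 0.24 (SE) had a limma adjusted p of 0.688.

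**Figure D3:**
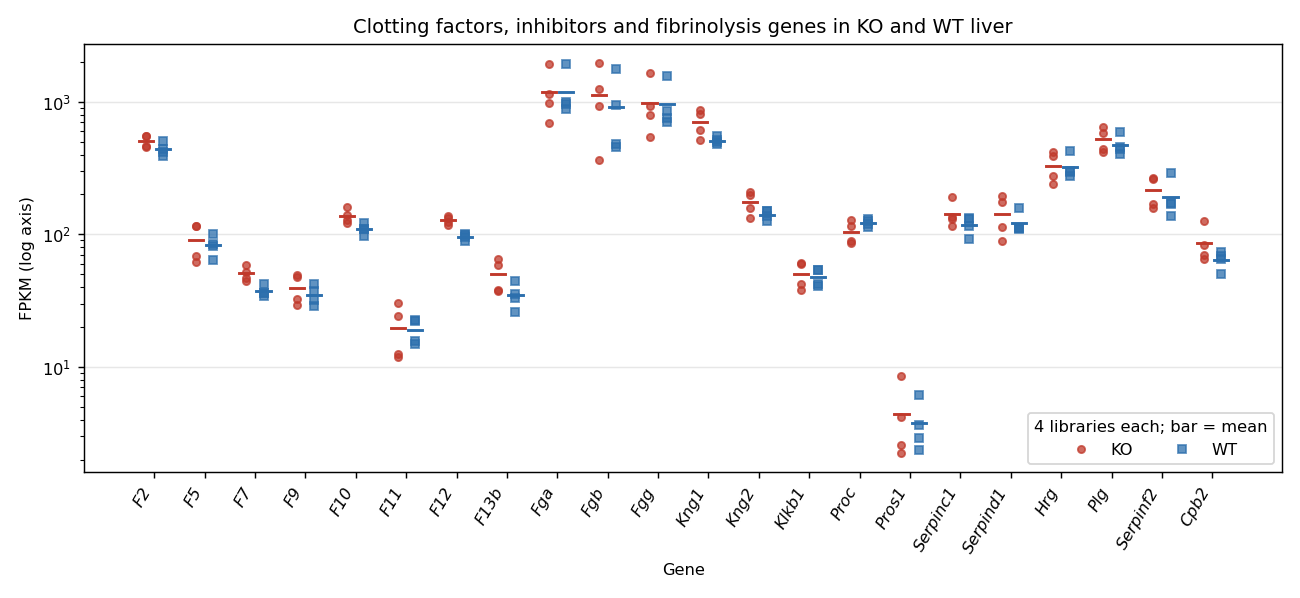
FPKM on a log axis of the 22 tested clotting genes in the 4 KO libraries (left of each gene) and the 4 WT libraries (right), with a bar at each mean. F7 and F12 are the genes without overlap, and Fgb (364 to 1947 FPKM over all 8 libraries) spans the widest range on the log axis.

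As a whole, 18 of the 22 tested clotting genes had a positive change, with a median of 0.17, against -0.03 and 45.5% positive over all genes tested. Above the median of all genes lay 21 of the 22. The 6 hepatocyte markers had a median change of 0.13, with 4 of them positive. The number of clotting genes with a positive change was 15 after scaling to equal sums and 21 after median ratio scaling. Equal sums moved the median of all genes to -0.12 and left 18 clotting genes above it. After scaling to the 6 hepatocyte markers 15 were positive, with a median of 0.08, and 18 lay above the median of all genes. The branch median of 0.17 is smaller than the spread of the branch between libraries of a group (SD 0.30 of the mean log2 level). Mean log2(FPKM + 1) over the branch was 6.75, 7.38, 6.96 and 7.54 in KO 1 to KO 4, against 6.92, 6.81, 6.84 and 7.30 in WT 1 to WT 4. KO 4 held the highest value of 13 of the 22 genes, and KO 2 and WT 4 of 6 and 3. KO 1 held the lowest value of 7 genes and WT 3 of 9. Many genes therefore rank the libraries alike, and their changes are not independent of each other. Without KO 2 or without KO 4 the median was 0.06 and 0.05.

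**Figure D4:**
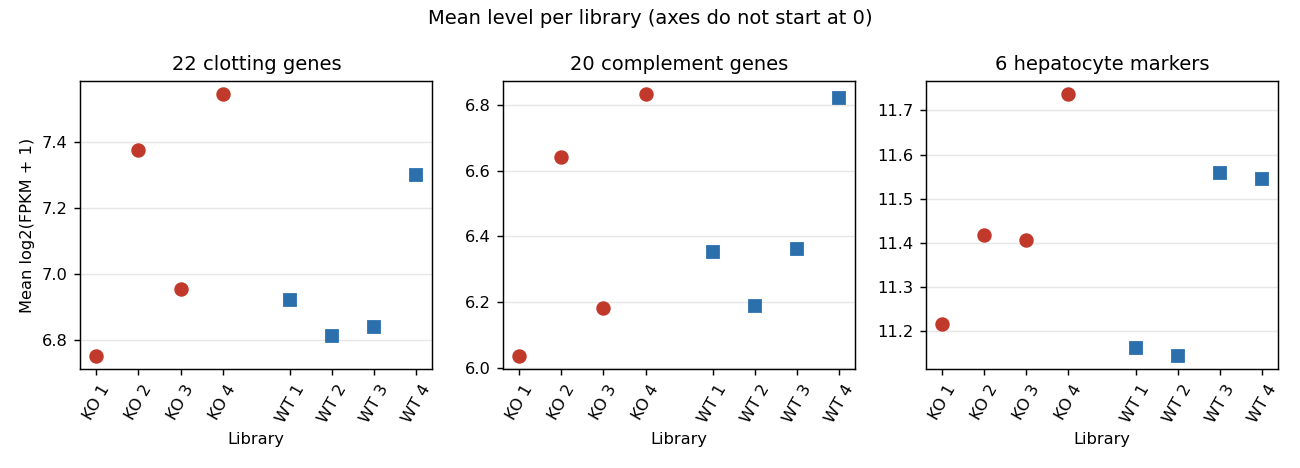
Mean log2(FPKM + 1) per library of the 22 clotting genes, the 20 complement genes and 6 hepatocyte markers, KO left of WT. KO 2, KO 4 and WT 4 are the 3 highest libraries in both branches.

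In the complement branch C8a and C4b were lower in every KO library than in any WT library, at about 0.31 and 0.44 of the WT mean, and the genes of the C1r and C1s proteases and C2 were higher on average. Of the 20 tested genes 0 passed the limma threshold over all genes. C8a encodes the alpha chain of the complement component that inserts the pore into a membrane. It was at 7.78, 16.6, 10.3 and 13.3 FPKM in KO 1 to KO 4, against 19.7, 23.3, 42.6 and 68.3 FPKM in WT 1 to WT 4. The change of C8a came to -1.48 ± 0.38 (SE), with a 95% interval from -2.34 to -0.62 and a limma adjusted p of 0.153. The gene spans 104815679 to 104876398 on chromosome 4 (GRCm38), where the predicted gene Gm17662 overlaps it on the opposite strand. Whether counting used strand is not stated, so reads of that gene cannot be told apart from those of C8a.

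C8b, the beta chain gene, lies 11131 bp from C8a with its 3′ end facing that of C8a. Its levels were 19.03, 34.2, 27.6 and 36.3 FPKM in KO, against 16.1, 18.2, 35.3 and 39.9 FPKM in WT, and overlapped (change 0.16 ± 0.33 SE, limma adjusted p = 0.945). In every KO library C8a was below C8b, and in every WT library above it. The ratio of C8a to C8b was 0.409, 0.484, 0.375 and 0.367 in KO, against 1.23, 1.28, 1.20 and 1.71 in WT. The mean ratio was 0.409 ± 0.0534 in KO and 1.36 ± 0.240 in WT (SD, n = 4 each). This ratio was set up for co-assembled chains and no p is given for it. C8g, the gamma chain gene on chromosome 2, had a change of 0.06, and its ratio to C8b overlapped between the groups. Since the neighbouring genes differ in this way, the 250 bases before their starts are shown, in lower case because no motif searched (C/EBP, interleukin-6 response, the HNF1 and HNF4 sites, and TATAAA) was found in them on either strand.
C8a promoter, chr4:104876399-104876648, minus strand: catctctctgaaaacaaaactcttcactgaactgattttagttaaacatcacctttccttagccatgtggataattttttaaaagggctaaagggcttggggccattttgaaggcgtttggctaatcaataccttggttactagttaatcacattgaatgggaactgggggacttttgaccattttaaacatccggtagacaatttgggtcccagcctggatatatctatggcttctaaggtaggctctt
C8b promoter, chr4:104766067-104766316, plus strand: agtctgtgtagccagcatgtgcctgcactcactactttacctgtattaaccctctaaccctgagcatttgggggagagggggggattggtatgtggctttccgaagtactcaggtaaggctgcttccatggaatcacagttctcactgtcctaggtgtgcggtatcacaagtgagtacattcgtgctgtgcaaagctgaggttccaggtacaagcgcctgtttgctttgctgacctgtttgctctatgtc
That no match was found says only that these letters are not in these windows. Of the 15 complement genes with a window, 4 held the C/EBP motif and 2 the HNF1 motif, which 0.371% of all windows held. The interleukin-6 motif was held by 3, TATAAA by 2 and the HNF4 site by 0, against 9.10%, 12.4% and 0.384% of all windows. Of the 19 clotting genes, 1 held the HNF1 motif, 1 TATAAA and 0 the HNF4 site. Genes were again counted by any window, and the shares by single windows.

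Hc, the mouse gene of component C5, averaged 142 ± 46.2 FPKM in KO and 119.6 ± 30.1 FPKM in WT (SD, n = 4 each, change 0.21). C9, whose product polymerises to form the pore, was at 14.5, 52.4, 19.8 and 67.6 FPKM in KO, against 43.8, 44.1, 63.3 and 83.3 FPKM in WT. KO 1 and KO 3 were below all WT libraries and KO 2 and KO 4 within their range (change -0.80 ± 0.47 SE, limma adjusted p = 0.654). C6 was far below the other components, at 0.341, 0.0365, 0.390 and 0.358 FPKM in KO, against 0.0145, 0.0499, 0.0577 and 0.0542 FPKM in WT, and did not reach the mean needed for testing. KO 1, KO 3 and KO 4 lay above the WT libraries and KO 2 among them. C7 was listed at 0 in all 8 libraries.

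C4b, on which the classical and lectin routes converge, was at 53.3, 68.4, 86.0 and 146 FPKM in KO 1 to KO 4, against 172, 183, 160.3 and 279 FPKM in WT 1 to WT 4. The change was -1.23 ± 0.31 (SE), with a 95% interval from -1.92 to -0.53 and a limma adjusted p of 0.145. It passed the threshold in 1 of 21 alternatives, quantile normalization (limma adjusted p = 0.0492), and the adjusted p ran up to 0.372 in the others. C4a, a close copy 65210 bp away that the table lists as a processed transcript, was at 21.2, 9.27, 12.9 and 20.7 FPKM in KO, against 42.4, 27.7, 23.8 and 40.6 FPKM in WT. Again every KO library was lower than any WT library (change -1.06 ± 0.30 SE, limma adjusted p = 0.193). Reads can be shared between C4a and C4b, so their values are not independent. Relative to C3 in the same library, C4b was at 0.0556 ± 0.0175 in KO and 0.141 ± 0.00931 in WT (SD, n = 4 each). C4b alone already separated the groups and C3 had a change of 0.16, so this ratio is not a further observation.

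Cfb and C2 lie next to each other in the same region of chromosome 17. Cfb, the protease gene of the alternative route, had a change of 0.01 ± 0.21 (SE, limma adjusted p = 0.995), at 223, 268, 235 and 351 FPKM in KO and 263, 220.1, 243 and 337 FPKM in WT. C2, the protease gene that works with C4, was at 18.3, 27.2, 22.5 and 29.6 FPKM in KO, against 16.9, 7.29, 19.2 and 17.4 FPKM in WT. WT 2 was low and KO 1 lay inside the WT range (change 0.71 ± 0.30 SE, limma adjusted p = 0.473). The annotated gene Gm20547 overlaps both C2 and Cfb on their own strand, which adds uncertainty to their values. C3, the component on which all routes meet, was the most abundant member. It was at 1245, 1790.3, 1245 and 2019 FPKM in KO, against 1307, 1212, 1186 and 1888 FPKM in WT (change 0.16 ± 0.24 SE, limma adjusted p = 0.910).

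C1ra, C1rb and C1s1 encode the proteases of the C1 complex and lie within one stretch of chromosome 6. C1s1 was at 78.8, 108, 88.2 and 103 FPKM in KO, against 76.5, 53.2, 66.6 and 68.1 FPKM in WT, the lowest KO library being just above the highest WT library. C1ra was at 43.6, 67.2, 40.9 and 69.2 FPKM in KO, against 35.5, 32.3, 32.2 and 43.3 FPKM in WT, and overlapped through KO 3 and WT 4. C1rb, a close copy of C1ra, was at 19.0, 25.0, 18.2 and 27.1 FPKM in KO, against 14.01, 14.5, 15.5 and 18.5 FPKM in WT. The changes were 0.51 ± 0.18 for C1s1, 0.58 ± 0.22 for C1ra and 0.48 ± 0.19 for C1rb (SE), with limma adjusted p of 0.350, 0.397 and 0.421. C1s2, a copy of C1s1 outside the list, was at 13.2, 17.7, 13.2 and 15.9 FPKM in KO, against 8.98, 8.88, 9.01 and 10.04 FPKM in WT (change 0.64 ± 0.16 SE, limma adjusted p = 0.146). Copies can exchange reads, so C1rb is not a separate observation from C1ra, nor C1s2 from C1s1.

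The lectin route starts with mannose-binding lectins and their proteases. Mbl1 was at 25.8, 37.4, 29.2 and 42.5 FPKM in KO, against 40.9, 40.9, 35.7 and 97.5 FPKM in WT, where WT 4 stood apart (change -0.56 ± 0.32 SE, limma adjusted p = 0.643). Mbl2, several times more abundant, had a change of -0.08. The protease genes Masp1 and Masp2 had changes of 0.16 and 0.31. The 4 regulators had changes of 0.06 to 0.22, and their groups overlapped. Vtn, the vitronectin gene, was at 488, 812, 644 and 945 FPKM in KO, against 619.7, 543, 531 and 790.2 FPKM in WT (change 0.19 ± 0.24 SE, limma adjusted p = 0.889). Serping1, the C1 inhibitor gene, Cfi, the protease gene that cuts C3b, and C4bp, the C4 binding protein gene, had changes of 0.17, 0.22 and 0.06.

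**Figure D5:**
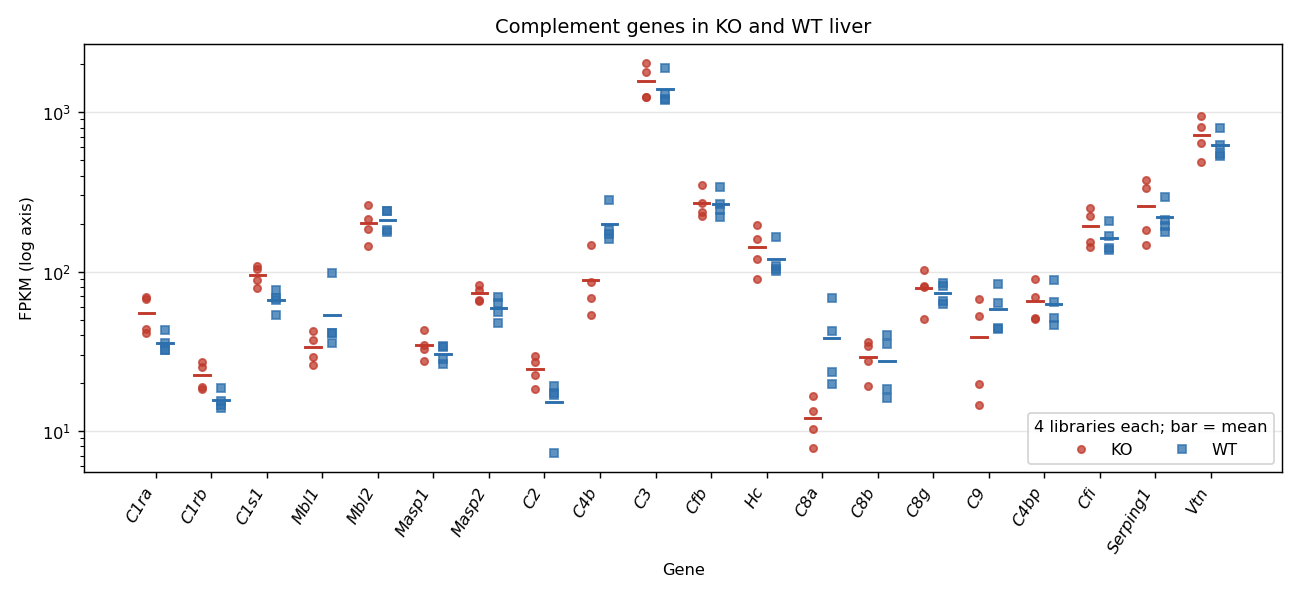
FPKM on a log axis of the 20 tested complement genes in the 4 KO libraries (left of each gene) and the 4 WT libraries (right), with a bar at each mean. C8a and C4b are lower in every KO library, and C1s1 is higher in every KO library.

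As a group, 15 of 20 complement genes had a positive change (median 0.16, from -1.48 to 0.71). The number was 12 after scaling to equal sums, which shifts all genes alike, and 15 lay above the median of all genes with either scaling. Scaling to the 6 hepatocyte markers also gave 12, with a median of 0.07 and 15 above the median of all genes. Mean log2(FPKM + 1) over the branch was 6.42 ± 0.38 in KO and 6.43 ± 0.27 in WT (SD, n = 4 each). The 5 genes with a negative change were C8a (-1.48), C4b (-1.23), C9 (-0.80), Mbl1 (-0.56) and Mbl2 (-0.08). In the mean over the branch they offset the positive changes of the other 15.

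The list of 33 other complement genes had 19 tested, with 0 past the limma threshold over all genes and a median change of 0.50. At an unadjusted limma p under 0.05 there were 12, 9 of these higher in KO. Over all genes tested the share at that p was 9.81%, with 4.99% higher in KO. Vsig4, among the 9, is also on the list of macrophage markers described next. Fcna, a ficolin of macrophages, was at 12.3, 2.64, 14.5 and 7.90 FPKM in KO, against 0.510, 1.41, 1.13 and 0.988 FPKM in WT (change 2.19 ± 0.41 SE, limma adjusted p = 0.0507). C1qa, C1qb and C1qc, which encode the recognition subunit of C1, had changes of 2.25, 2.30 and 2.35 (limma adjusted p = 0.0997, 0.0745 and 0.0745). C1qa was at 13.01, 2.76, 21.6 and 13.9 FPKM in KO, against 0.527, 1.39, 2.10 and 2.06 FPKM in WT. KO 2 held the lowest KO value of each of these 4 genes. Without KO 2 all 4 genes passed the threshold, higher in KO. In that fit 92 of 11320 genes tested were called higher in KO, against 46 with all libraries. Over the 21 alternatives the limma adjusted p reached 0.161 for Fcna, 0.252 for C1qa, 0.205 for C1qb and 0.203 for C1qc.

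Markers of macrophages were higher in the same KO libraries, with a higher mean for 10 of 10 genes and a summed level of 15.6 to 116 FPKM in KO and 5.41 to 10.4 FPKM in WT. KO 2 held the lowest of these KO sums. For endothelial markers, 8 of 8 higher on average, the sum was 7.01 to 19.3 FPKM in KO and 2.28 to 5.69 FPKM in WT, and for stellate cell markers, again 8 of 8, it was 9.29 to 22.8 FPKM in KO and 1.93 to 6.10 FPKM in WT. In bulk tissue a change in the number of cells of a type and a change in RNA per cell cannot be told apart. Hepatocyte markers, 4 of 6 higher on average, summed to 33124 to 47417 FPKM in KO and 29892 to 41012 FPKM in WT. Cholangiocyte markers summed to 0.527 to 6.82 FPKM in KO and 0.269 to 0.791 FPKM in WT, with 4 of 5 genes higher on average. Spp1 made up most of each KO sum, at 0.512 to 6.72 FPKM in KO and 0 to 0.658 FPKM in WT, and its groups overlapped. Krt19, Krt7 and Epcam were listed at 0 in every WT library and reached at most 0.109 FPKM in KO. Sox9 was lower in every KO library (0.0157 to 0.123 FPKM) than in any WT library (0.134 to 0.462 FPKM). No lymphocyte, neutrophil or platelet marker exceeded 0.43 FPKM. The part of other cell types in the values of C2, C1ra, C1rb and C1s1 was not tested.

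Of the 26 other clotting and fibrinolysis genes, 9 were tested and 0 passed (limma), with a median change of 0.03. S100a10, whose product binds plasminogen at the cell surface, was at 26.9, 11.2, 13.4 and 19.7 FPKM in KO, against 25.9, 27.6, 19.6 and 70.1 FPKM in WT (change -0.87, limma adjusted p = 0.524). Fgl1, Habp2 and Serpina10 had changes of -0.68, 0.29 and 0.33. The 5 genes of the vitamin K cycle and of factor export, needed for the carboxylation and secretion of several clotting factors, had a median change of -0.08 and 0 calls. Among these Vkorc1l1, Mcfd2, Vkorc1 and Ggcx had changes of 0.56, -0.27, -0.08 and -0.08. Of 10 transcription factors known to act on such genes in liver, 0 passed (median change -0.09). Nr1h4, the bile acid receptor gene, was at 13.97, 23.8, 20.9 and 21.9 FPKM in KO, against 29.2, 38.5, 30.6 and 20.8 FPKM in WT (change -0.54 ± 0.23 SE, limma adjusted p = 0.491). Foxa2, Stat3 and Cebpb had changes of -0.29, -0.27 and 0.23, with overlapping groups.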

How the data were processed

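RNA of frozen liver was sequenced in 4 KO and 4 WT samples. Trizol and miRNeasy columns served for RNA and Nugen kits for libraries, per the labels. The FPKM values of 35638 Ensembl genes came as a single deposited table. The submitters' processing notes list mm10, TopHat and edgeR. What each tool did, its version, the gene annotation and any use of strand are not stated there. FPKM depends on all reads of a library, and the 10 most abundant genes held 40.9 to 50.4% of it. No count test was run.

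Depth was estimated as the number of reads that put most low values of 12059 single-transcript genes (at least 400 nt) near whole reads. At that depth 52.8 to 57.0% lay within 0.1 of a whole read, so no reads per gene were rebuilt. By chance 20% would do so at a depth fixed beforehand, whereas this depth was chosen for the largest share.

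Values were taken as log2(FPKM + 1), for 11266 genes with a mean of at least 1 FPKM over the libraries in the fit, and compared with limma 3.58.1 in R 4.3.3 (genotype as the sole term, intensity trend, two-sided, Benjamini-Hochberg over all genes, threshold 0.05). The fit was tested on simulated data. Groups, branches and gene lists came from the labels and from the given members, all chosen with earlier results of these data known. Full values are given for the 6 members of smallest p and the 3 most abundant in each branch, members without overlap between groups, and the 4 of smallest p in each further list. Chains of 1 complex and their close copies are described together. C6, C9, Proc and Pzp were chosen after their values were seen. Of the gene IDs 99.4% matched GENCODE M21 (GRCm38, the build mm10), which gave coordinates. RefSeq promoter windows were searched with Python 3.11.15, and figures drawn with matplotlib 3.10.9. Alternatives were other pseudocounts, filters, scalings, variance models, the replicate number as a block and left-out libraries. Scaling to hepatocyte markers was added after the data were seen.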

Additional observations from a re-analysis of the deposited data

Results flagged for a closer look

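Of 84 groups of 4 libraries, 5 held a library far from the other 3 by Dixon's test at the 95% level, where chance flags about 1 in 20. All 5 were WT 4. Fga was at 1918 FPKM in WT 4, against 878 to 994 FPKM in the other WT libraries. Serpind1 was at 157 FPKM there, against 109 to 112 FPKM, and Hrg at 423 FPKM, against 277 to 299.8 FPKM. Mbl1 was at 97.5 FPKM, against 35.7 to 40.9 FPKM, and Hc reached 165 FPKM, above the 101 to 108 FPKM of WT 1 to WT 3. With WT 4 left out, the median change was 0.30 in each branch, against 0.17 for the clotting genes and 0.16 for the complement genes with all libraries.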

How the results depend on the processing

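Counts of calls, branch medians and the changes of 18 named members were recomputed under 21 alternatives, and 0 clotting genes were called in any of them. Ratios between genes, marker sums and single-library flags were not recomputed. In the complement branch C4b was the sole call, lower in KO with quantile normalization (1 gene, limma adjusted p = 0.0492). The adjusted p of C8a was 0.0718 to 0.335 over the alternatives, and its change -1.73 to -1.15. Of 378 recomputed changes of 18 named members, 358 kept their direction and side of the threshold and 19 turned sign, in Fga, Fgg, Fgb and Cfb. The change of Fga was 0.019 with median ratio scaling, 0.10 with array weights, 0.21 without KO 1, 0.04 without KO 2, 0.24 without WT 4 and 0.30 without WT 4 and KO 2 together. That of Fgg was 0.011, 0.10, 0.22, 0.04, 0.23 and 0.29 in the same fits, and that of Fgb -0.046 without KO 4. The change of Cfb was -0.10 with equal sums, -0.0046 with quantile normalization, -0.078 scaled to hepatocyte markers, and -0.12, -0.07 and -0.02 without KO 4, WT 2 and WT 3. With single libraries left out, the changes ran from -0.28 to 0.24 for Fga, -0.31 to 0.23 for Fgg, -0.046 to 0.76 for Fgb and -0.12 to 0.13 for Cfb. The cause was not tested. Branch medians ran from 0.05 to 0.30 for clotting genes and from 0.04 to 0.30 for complement genes. The number of all genes called higher and lower in KO was 27 and 27 with a pseudocount of 5 FPKM, 32 and 26 with no filter, 14 and 13 with a minimum of 5 FPKM, 75 and 35 without WT 4 and KO 2 together and 28 and 35 scaled to hepatocyte markers. With single libraries left out it was 20 to 92 higher and 14 to 44 lower. With the replicate number as a block 16 genes were called higher and 8 lower, and no member changed its call. Same-numbered samples had correlations of their deviations of -0.07 to 0.25, and 1 of 4 numbers, number 4, matched best with itself. A pairing by number was thus not seen, but 4 numbers are too few to decide whether the samples were paired. With 4 libraries a group, changes as large as that of C8a (-1.48) did not pass the adjusted threshold, so a missing call does not show that a gene was equal in both groups.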

Other observations

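Some genes of clotting and complement control were too low for testing and yet separated the groups. Adamts13, which encodes the protease that trims von Willebrand factor, was at 0.857, 1.44, 0.496 and 2.01 FPKM in KO 1 to KO 4, against 0.239, 0.0504, 0.399 and 0.0483 FPKM in WT 1 to WT 4. Cd55, a membrane inhibitor of complement convertases, was at 0.923, 0.452, 0.771 and 1.14 FPKM in KO, against 0.0227, 0.0255, 0.334 and 0.225 FPKM in WT. Tfpi, the tissue factor pathway inhibitor gene, was at 0.331, 0.134, 0.173 and 0.174 FPKM in KO, against 0.101, 0, 0.0839 and 0.0388 FPKM in WT. Procr, the endothelial protein C receptor gene, had 0.0324 to 0.175 FPKM in KO and was listed at 0 in every WT library. In the other direction Susd4, a complement inhibitor gene, was at 0 to 0.0383 FPKM in KO and 0.0386 to 0.756 FPKM in WT. These genes were chosen after their values were seen, and at such levels few reads stand behind a value. Vwf, C5ar1, Itgb2 and Cd93, also too low for testing, were higher in every KO library as well. The limit on reads holds for them too, above all for Vwf. It was at 0.0454, 0.0043, 0.174 and 0.0038 FPKM in KO 1 to KO 4 and at 0 in every WT library. How many of all the untested genes separate the groups was not counted. Markers of endothelial, stellate and macrophage cells were also higher in the KO libraries, and their part in these values was not tested.

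Cd59a, an inhibitor of the terminal pore and well above the minimum for testing, was at 7.45, 6.66, 1.92 and 7.63 FPKM in KO, against 11.9, 10.2, 12.3 and 11.3 FPKM in WT (change -0.96 ± 0.33 SE, limma adjusted p = 0.330). It too was chosen after its values were seen.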
